A study of Mus musculus with 3 samples.

Results

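The isolated shared sites are single binding peaks, present in the lists of both REV-ERB alpha and REV-ERB beta, that stand alone in a long stretch of chromosome. A site was taken if its alpha peak overlapped a beta peak by at least 1 bp and no other peak centre of either list lay within 100000 bp of the alpha centre on an autosome. There were 377 such sites among 13196 shared autosomal peaks, or 2.86% (exact binomial interval 2.58% to 3.16%), out of 24461 alpha and 22097 beta peaks in all. The sites were chosen from measured peak positions, so their overlap and their distance to other peaks describe the choice and are not results.

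REV-ERB alpha (gene Nr1d1) and REV-ERB beta (gene Nr1d2) are nuclear receptors of the circadian clock. They lack the helix with which other nuclear receptors recruit coactivators, and they repress genes through the corepressor NCoR and the histone deacetylase HDAC3. Both bind DNA at a nuclear receptor core motif with an A/T-rich flank, alone or as a pair, where they compete with the activating ROR receptors. In liver they restrain clock genes such as Arntl and genes of lipid and bile acid metabolism.

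Chromatin was immunoprecipitated from livers of male C57BL/6 mice aged 20 weeks, kept for 3 days on a cycle of 12 hours of light and 12 of darkness and sampled at ZT8, the zeitgeber hour counted from lights on. The labels name no knockout or treatment. There were 3 libraries: 1 with an antibody against REV-ERB alpha, 1 with an antibody against REV-ERB beta and 1 of liver input without an antibody. With 1 library per antibody there is no replicate error and no test between receptors. Intervals below are 95% intervals that treat sites or tags as independent and cover counting error only, and sites of 1 library are not replicates. Whether each antibody recognises only its own receptor was not tested.

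A tag is a sequenced read placed on the mm9 assembly. Tags were counted by the authors in windows of 153 bp (alpha) and 210 bp (beta), and they are not scaled to library size. The input counts in the same windows were low at most members, with a mean of 2.21 tags (range 0 to 12) in the alpha windows and 3.12 (range 0 to 14) in the beta windows. Positions below are mm9, and no gene, exon or promoter is named because mm9 gene annotation and sequence were not used here. On chromosome 8 there were 0 beta peaks in the list used here, so the members lie on 18 autosomes.

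The members were spread over the 18 autosomes. The median distance to the nearest other peak was 173 kb (quartiles 126 and 279 kb), and 161 members (42.7%) had no other peak within 200 kb, 44 (11.7%) none within 500 kb and 12 (3.18%) none within 1 Mb. Between the flanking peaks on the left and right, the median empty stretch around a member was 630.3 kb (quartiles 396 and 1153 kb, 375 members with a peak on both sides). The nearest other peak was itself shared by both lists for 129 members (34.2%), found in the alpha list only for 136 and found in the beta list only for 112. Of all autosomal peaks, 57.7% of alpha peaks (without chromosome 8) and 60.4% of beta peaks were shared. Each of these shares is within 1 list, while the nearest other peaks were drawn from both lists together. They are therefore not a like background for the 34.2%. For 31 members (8.22%) the nearest other peak was another isolated shared site. The members made up 1.54% of all alpha and 1.71% of all beta peaks. Whether members lay nearer to each other than their sparse surroundings would give was not tested. Cut into bins of 10 Mb, the members fell into 188 bins, and the fullest held 6, a number reached on chromosome 2 from 40 to 50 Mb, chromosome 7 from 120 to 130 Mb and chromosome 18 from 50 to 60 Mb.

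**Figure D1:**
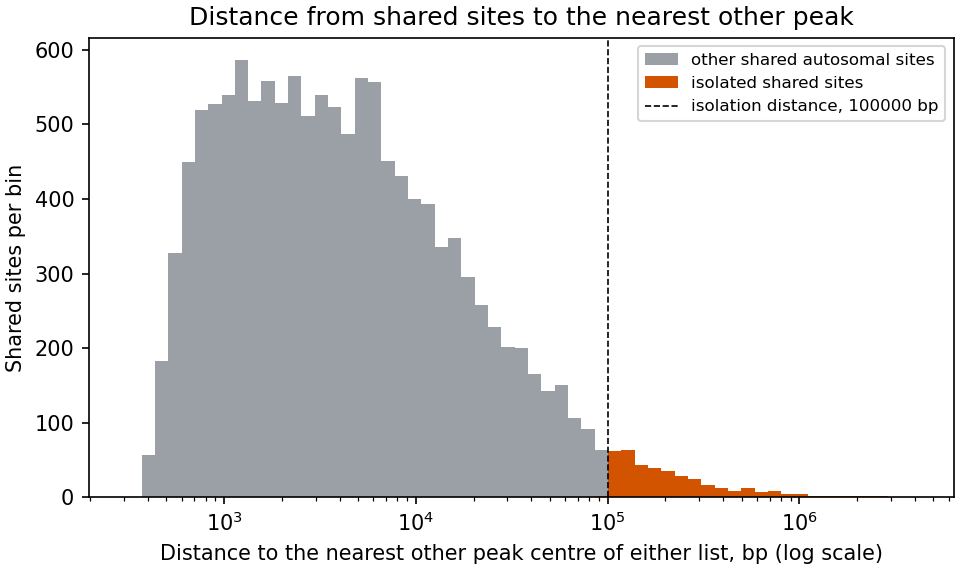
Number of shared autosomal sites (vertical axis) by distance in bp from the alpha centre to the nearest other peak centre of either list (horizontal axis, log scale, equal bins of log distance). The 377 isolated sites are the tail to the right of the dashed line at 100000 bp, and nothing separates them from the rest at that distance.

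The cut at 100000 bp runs through a continuous tail, as the plot of distances shows. Just inside it lay the site at chr6:23198236-23198388, with its nearest other peak at 100026 bp and 24 alpha and 20 beta tags. The next members lay at chr19:56948423-56948575 (100400 bp, 46 alpha and 41 beta tags) and at chr6:135252545-135252697 (100686 bp, 17 and 20 tags). Just outside it were shared sites at chr19:38589237-38589389 (99591 bp, 26 alpha and 88 beta tags), at chr2:156121552-156121704 (99540 bp, 14 and 20 tags) and at chr19:58629603-58629755 (99469 bp, 42 and 29 tags). Sites on the 2 sides of the limit overlapped in their tag counts.

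Every one of the 18 autosomes held isolated shared sites, from 11 on chromosomes 17 and 19 to 34 on chromosome 1. As a share of the shared sites of the chromosome they ranged from 1.90% on chromosome 17 (0.954% to 3.38%) to 3.96% on chromosome 3 (2.69% to 5.60%), and those intervals overlapped. Chromosome 3 had the lowest density of alpha peaks among the 18, 8.11 per Mb. On chromosome 19, with the highest density, 15.7 per Mb, 2.03% of the shared sites were isolated (1.02% to 3.60%). Over the 18 autosomes the isolated share and the density of alpha peaks had a Pearson r of -0.66. By the distance rule, denser peaks leave fewer sites isolated, so this relation describes the choice. Per Mb, members were densest on chromosome 16, with 0.221, and sparsest on chromosome 17, with 0.120.

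**Figure D2:**
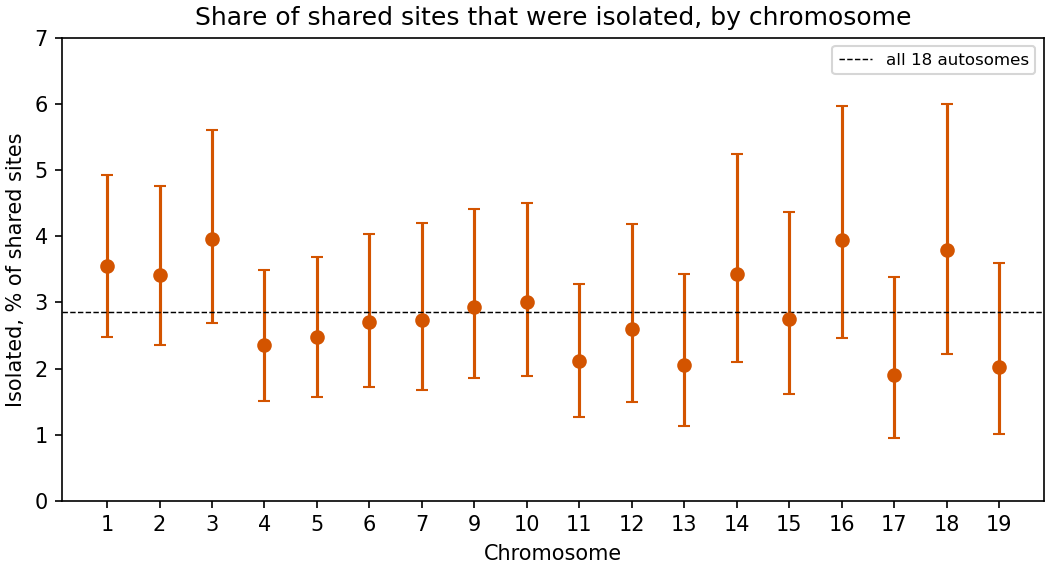
Isolated sites as a percentage of the shared sites of each chromosome (points, with exact 95% binomial intervals as bars); the dashed line is the share over all 18 autosomes, 2.86%. The points run from 1.90% on chromosome 17 to 3.96% on chromosome 3, and the bars of these 2 chromosomes overlap.

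Most isolated shared sites were modest peaks. They held a median of 28 alpha tags (quartiles 21 and 40, lowest 14, highest 249) and 35 beta tags (quartiles 25 and 54, lowest 14, highest 233). The other 12819 shared autosomal sites held a median of 36 alpha tags (quartiles 24 and 56) and 53 beta tags (quartiles 34 and 88). The median of the members was thus 0.778 times that of the other shared sites for alpha and 0.660 times for beta, and the ranges of single sites overlapped. The intervals of the medians did not overlap: 27 to 30 against 35 to 36 alpha tags, and 33 to 38 against 52 to 54 beta tags. Input was lower at the members as well, 0.777 times the mean of the other sites in the alpha windows and 0.813 times in the beta windows, and its part in the difference was not tested. Low medians were not particular to the members. Shared sites with the nearest other peak 25000 to 50000 bp away held medians of 28 alpha (27 to 29) and 38 beta tags (36 to 41). From 50000 to 100000 bp the medians were 30 (28 to 32) and 40 (37 to 42). These intervals overlapped those of the members.

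Strong sites were present among the members but few. In the alpha list 70 tags or more put a peak in the top decile, and 23 members (6.10%, 3.91% to 9.01%) reached this, against 16.2% of the other shared sites. For beta the top decile began at 111 tags and held 21 members (5.57%, 3.48% to 8.39%) against 16.4% of the others. Both values were in the top decile at 9 members (2.39%), against 9.06% of the other shared sites. At the other end, 167 members (44.3%) had fewer alpha tags than the median of 27 over the alpha list, against 30.5% of the other shared sites. For beta, 209 members (55.4%) had fewer tags than the list median of 39, against 32.0% of the others. The lowest alpha score (14) was found at 10 members (2.65%) and 3.09% of the other shared sites, and the lowest beta score (12) at 14 members (3.71%) and 1.97% of the others.

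The site with the most tags of both receptors lay at chr3:107032914-107033066 (beta window 107032895 to 107033105). It held 249 alpha and 233 beta tags against 6 and 9 input tags, and its nearest other peak was 100964 bp away. Next was the site at chr7:103384469-103384621, with 225 alpha and 182 beta tags and 0 input tags in both windows. No other peak lay within 541847 bp of it, and it ranked 50th of the alpha list and 645th of the beta list by tags. Both sites were far higher in either antibody library than in the input.

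The third, at chr10:10299767-10299919, held 154 alpha and 220 beta tags with 12 input tags in each window, the highest alpha-window input among the members. A further site at chr10:21721540-21721692 held 131 alpha and 116 beta tags with 2 and 4 input tags. At chr12:111037191-111037343 there were 114 alpha and 132 beta tags with 6 and 10 input tags. The alpha to beta ratio of the first 2 sites on this list, 1.07 and 1.24, was above the median ratio of the members, and that of the third, 0.700, below it.

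The sites at chr5:125372481-125372633 (101 alpha and 183 beta tags) and at chr19:60657404-60657556 (86 and 160 tags) had ratios below the median of all shared sites. Their centred log2 ratios were -0.32 (-0.69 to 0.04) and -0.36 (-0.75 to 0.03), with intervals that included 0. Completing the 10 highest were chr9:103377872-103378024 (98 alpha and 123 beta tags), chr18:54651819-54651971 (92 and 115 tags) and chr5:54747551-54747703 (94 and 110 tags). Over the 10 sites the nearest other peak was between 100964 and 541847 bp away. All 10 lay within 2-fold of the median ratio of all shared sites.

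**Figure D3:**
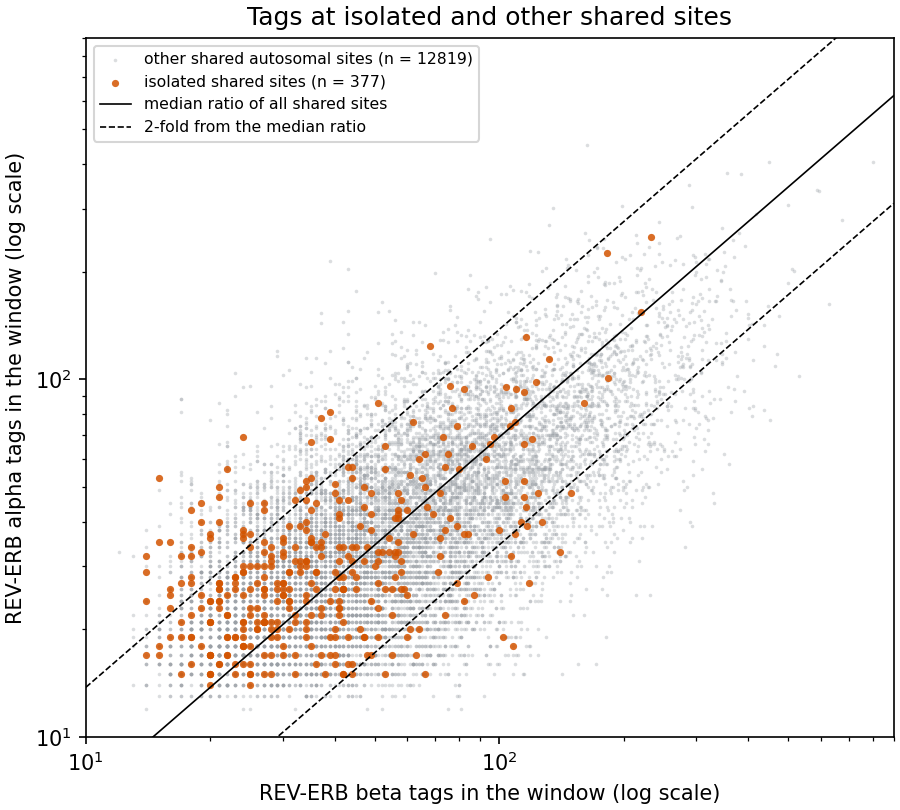
Alpha tags in the 153 bp window against beta tags in the 210 bp window for each shared autosomal site (both axes log scale); the solid line is the median ratio of all shared sites, 0.689, and the dashed lines are 2-fold above and below it. The isolated sites (orange) lie mostly at the low end, with medians of 28 alpha and 35 beta tags, and 2 of them exceed 200 alpha tags.

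The alpha to beta ratio of the members was shifted towards alpha. The median member held 0.806 alpha tags per beta tag (0.762 to 0.850), the median of the other shared sites 0.685 (0.678 to 0.692). The ratio mixes library depth, window width and repeated tags with binding, so it was set against its median over all 13196 shared autosomal sites, 0.689. On that log2 scale the median member was at 0.23 (0.14 to 0.30), and 246 of the 377 members (65.3%, 60.2% to 70.1%) were above 0, against 49.6% of the other shared sites. A smaller shift was present at shared sites with the nearest other peak over 10000 bp away but within the isolation distance. Their median was 0.10 (0.06 to 0.12), and 54.9% were above 0. The 44 members with no other peak within 500000 bp were at 0.14, with an interval that included 0 (-0.003 to 0.60). With unique tag positions in place of all tags, the median member was also at 0.23, and 226 members (59.9%) had more alpha than beta positions, against 43.2% of the other shared sites. By chromosome, the median of the members was above 0 on 17 of 18 autosomes and at -0.10 on chromosome 17, where there were 11 members.

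A size of 2-fold from the median ratio stood in place of a test. At least 2-fold higher in alpha were 44 members (11.7%, 8.61% to 15.3%), where 8.34% of all shared autosomal sites were. At least 2-fold higher in beta were 22 members (5.84%, 3.69% to 8.70%), where 9.72% of all shared autosomal sites were. Both intervals excluded these backgrounds, but not under every setting. With the lowest alpha score applied to both lists, 9.21% of 391 members leaned to alpha (6.53% to 12.5%) against 8.26% of all shared sites, and with unique positions 9.02% (6.33% to 12.4%) against 6.53%. The beta share with unique positions, 4.24% (2.44% to 6.80%), stayed below its background of 7.63%. The other 311 members (82.5%) lay within 2-fold. Among shared sites whose nearest other peak was over 10000 bp away but within the isolation distance, 10.1% leaned to alpha and 7.98% to beta, between the values of the members and those of all shared sites.

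The ratio of the other shared sites fell with height, and the members were low. Height was taken as the geometric mean of the alpha and beta tags, and the shared sites were cut into 5 classes of equal size by height. The lowest class held 141 members (37.4%) and the highest 27 (7.16%). At least 2-fold higher in beta were 1 of 141 members and 50 of 2506 other sites in the lowest class. In the highest class these were 1 of 27 members and 348 of 2612 other sites. At least 2-fold higher in alpha were 17 members and 191 other sites in the lowest class, and 1 and 144 in the highest. A lean to beta was thus rarer among low sites, and its part in the 5.84% of members was not tested. In the lowest class the median log2 ratio was 0.30 for the members (0.17 to 0.42) and 0.19 for the other sites (0.17 to 0.22). In the second class it was 0.37 (0.07 to 0.45) against 0.05, in the third 0.10 (-0.17 to 0.30) against -0.03, and in the fourth -0.08 (-0.48 to 0.20) against -0.08. In the highest class the members were at 0.17 (0.01 to 0.44) and the other sites at -0.22 (-0.25 to -0.18). The intervals of members and other sites were apart in the highest class only. Height was not matched within that class, where it ran from 74.8 to 241 for the members and from 74.7 to 570 for the other sites. Centred within classes of height, an alternative chosen after the data were seen, the median member was at 0.16, and 11.4% leaned to alpha (8.38% to 15.1%) and 6.37% to beta (4.12% to 9.32%), against 8.71% and 8.80% of all shared sites, which lie inside these intervals.

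**Figure D4:**
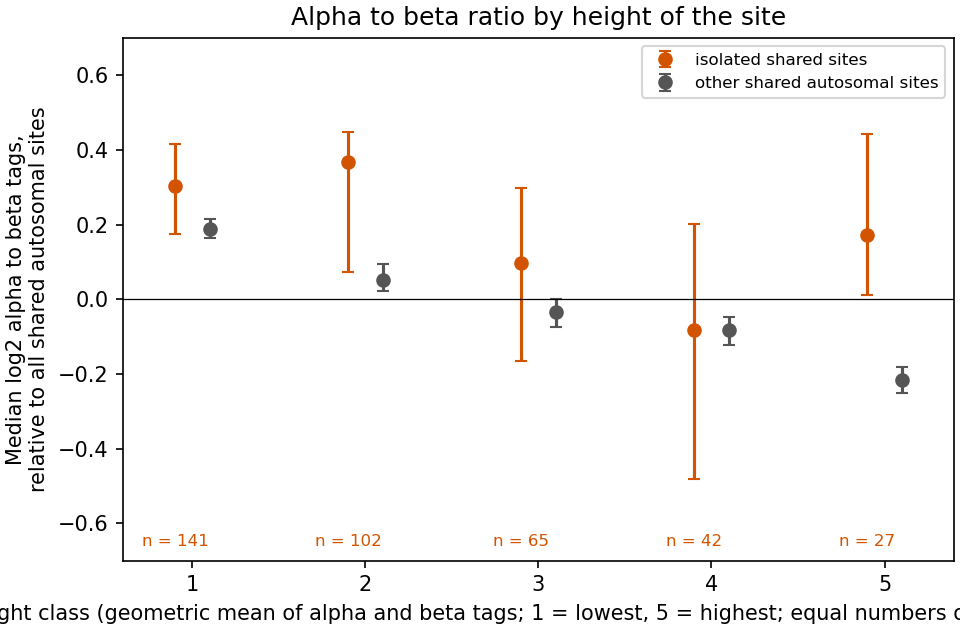
Median log2 ratio of alpha to beta tags relative to all shared autosomal sites (vertical axis) in 5 classes of height (horizontal axis) for isolated (orange) and other shared sites (grey), with exact 95% intervals of the median as bars and the number of isolated sites below. The other sites fall from 0.19 in the lowest class to -0.22 in the highest, where the isolated sites are at 0.17.

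Among members at or above the median height, single sites leaned far to either receptor. The site at chr9:28059035-28059187 held 69 tags for alpha and 24 for beta. Its ratio was 4.17-fold higher than the median ratio (centred log2 2.06, with an exact interval from 1.37 to 2.80). chr2:75837873-75838025 held 56 alpha and 22 beta tags, and chr14:22814237-22814389 held 50 and 21. Next came chr10:84507017-84507169 (47 alpha and 21 beta tags) and chr10:115217323-115217475 (78 and 37 tags). The last of these had 7 and 8 input tags, more than most members.

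On the beta side, chr1:58852304-58852456 held 18 tags for alpha and 108 for beta. Its ratio was 4.13-fold lower than the median ratio (centred log2 -2.05, interval from -2.86 to -1.32). chr17:40943495-40943647 held 19 alpha and 102 beta tags, and the centres of its 2 windows were 106 bp apart. It was followed by chr10:115989900-115990052 (15 alpha and 66 beta tags), chr6:81602023-81602175 (27 and 118) and chr5:90458948-90459100 (33 and 140). Input was between 0 and 8 tags at these 5 sites. All 10 sites were picked for their extreme ratios, so the ratios describe the choice.

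None of the 5 most remote members was among the 10 highest. At chr4:29216204-29216356, with no other peak within 2825467 bp, there were 18 alpha and 35 beta tags, and the centres of the 2 windows were 157 bp apart. The site at chr5:57300853-57301005 (2286779 bp) held 32 alpha and 18 beta tags with 4 input tags in each window. At chr2:87360986-87361138 (2267837 bp) there were 60 alpha and 64 beta tags. The chromosome 17 site that leaned to beta was the fourth most remote, at 1945830 bp, and a site at chr15:46457095-46457247 (1778433 bp) held 16 alpha and 40 beta tags with 0 input tags. Across the 377 members, the log2 distance to the nearest other peak and the log2 height had a Pearson r of -0.05 and a Spearman rho of -0.04, with all points from the same 2 libraries.

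The surroundings of the members held fewer tags of either receptor. In the 10 kb around a site, less the window itself, the median was 95 alpha tags (88 to 102) and 91 beta tags (87 to 95) at the members, against 182 and 172 at the other shared sites. Neighbouring peaks add to that count, and members have none by choice. The fairer set is the 3133 shared sites whose nearest other peak was over 10000 bp away, outside the counted region, and these had medians of 126 alpha tags (124 to 128) and 107 beta tags (105 to 109). The members were thus at 0.754 and 0.850 times that level outside the window, and at 0.903 and 0.833 times inside it (28 against 31 alpha tags and 35 against 42 beta tags). Mean input in the windows was 0.858 and 0.877 times that of the same sites, and its part in these differences was not tested.

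Relative to its surroundings, the alpha signal of the members was higher than that of other sites without a peak nearby, and for beta the intervals overlapped. The difference between the receptors was not tested. Alpha tag density in the window was a median 20.8 times that of the surrounding 10 kb (18.8 to 22.7), against 16.9 times (16.4 to 17.4) at the 3133 shared sites without a peak in the counted region. Beta density was 19.3 times the surroundings (17.9 to 20.8), against 19.6 times (19.0 to 20.1). Set against all other shared sites, whose surroundings often hold further peaks, the medians were 1.60 and 1.34 times as high at the members, the opposite direction to that of the tag counts.

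Along the distance to the nearest other peak, tags in the window were lower up to 25000 to 50000 bp, and tags outside it dropped in a step where neighbouring peaks leave the counted 10 kb. Median alpha tags in the window were 39 for shared sites with another peak within 1000 bp, 28 between 25000 and 50000 bp, and 30.5 (25 to 42) for the 44 members beyond 500000 bp. Beta tags went from 59 to 38 and 36 (30 to 47) at the same distances. Outside the window, median alpha tags were 223 with the nearest other peak between 1000 and 5000 bp and 148 between 5000 and 10000 bp, and beta tags 230.0 and 130.0. From there they were lower still, at 117 alpha and 100 beta tags between 25000 and 50000 bp and at 69.5 (57 to 82) and 76.5 (66 to 101) beyond 500000 bp. Density over the surroundings had its step at the same place, from 10.9 to 16.3 for alpha and from 11.8 to 19.3 for beta. Mean input in the alpha windows was 2.95 tags within 1000 bp, 2.40 between 25000 and 50000 bp and 1.77 beyond 500000 bp. Tags in the window thus changed little beyond 25000 bp, while tags outside it and input were lower still at the most remote members.

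**Figure D5:**
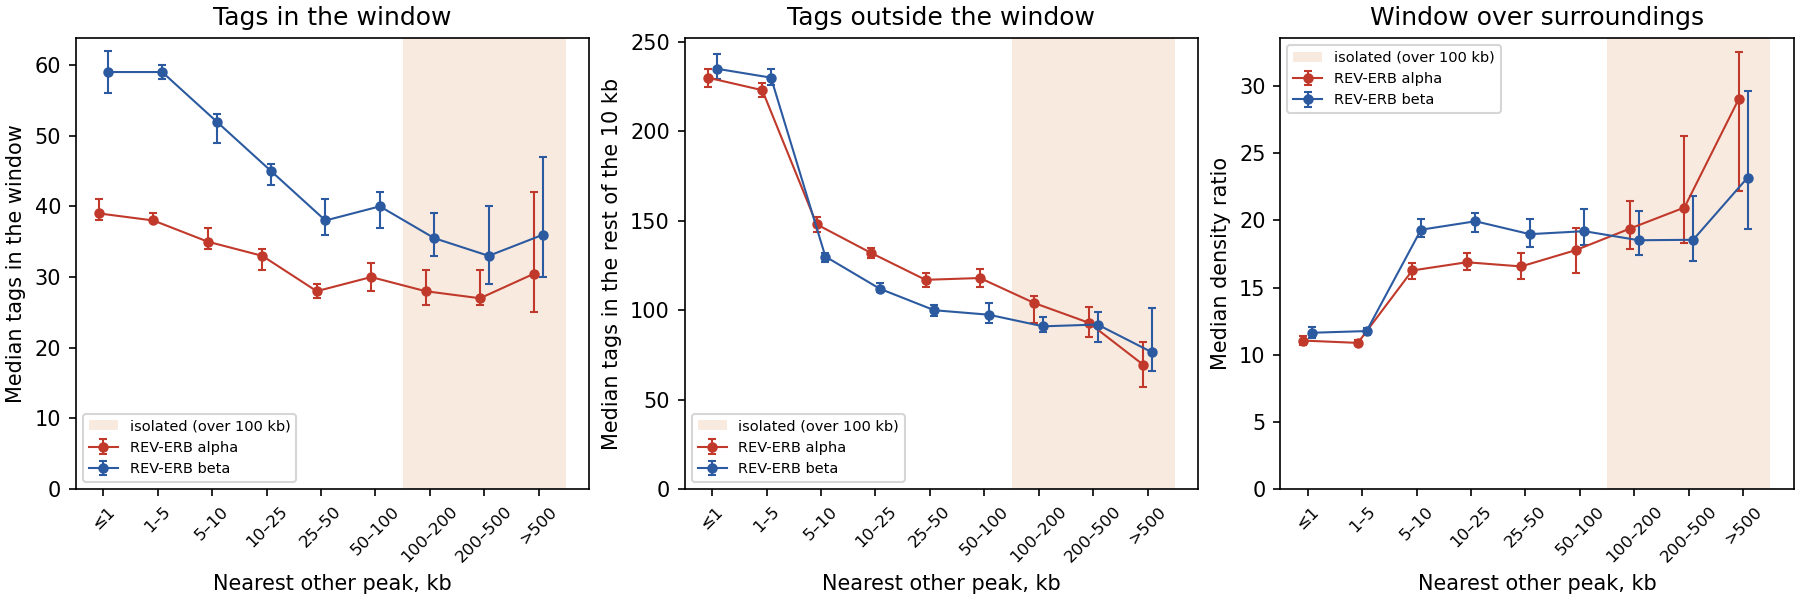
Medians at shared autosomal sites by distance to the nearest other peak in kb (horizontal axes) of tags in the window, tags in the rest of the 10 kb and the ratio of tag density in the window to that around it (vertical axes), for alpha (red) and beta (blue), with exact 95% intervals of the median. In the shaded bins of isolated sites, tags outside the window are lowest, 69.5 for alpha and 76.5 for beta beyond 500 kb. The density ratio of alpha is also highest in these bins, up to 29.0 beyond 500 kb. That of beta is 23.2 (19.4 to 29.6) beyond 500 kb. In the other shaded bins it is 18.5 and 18.6, below the 19.9 between 10000 and 25000 bp.

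Alpha and beta centres at the members were a median 29 bp apart (25 to 33), and 273 members (72.4%, 67.6% to 76.9%) had them within 50 bp. At the other shared sites the median was 27 bp (27 to 28) and 75.2% lay within 50 bp, so the intervals overlapped. Tags per unique position, a measure of repeated reads, had a median of 1.15 for alpha and 1.59 for beta at the members and 1.18 and 1.62 at the other sites. Across the members, log2 alpha and beta tags had a Pearson r of 0.56 and a Spearman rho of 0.47 (n = 377). The values over the other 12819 shared sites were 0.66 and 0.64. The points share 2 libraries and 1 input, and the members cover a narrower range of heights.

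Isolated peaks of 1 list only held fewer tags than the isolated shared sites. Height decides in part whether a peak is in both lists, so this difference follows in part from the choice. Sharing rose with height among peaks with a neighbour as well. Among such alpha peaks, the share with a beta partner rose from 29.8% in the lowest quartile of tags to 86.3% in the highest. Among beta peaks with a neighbour, the share with an alpha partner rose from 31.2% to 90.2%. Tag medians of shared and unshared peaks with a neighbour were not compared. Outside chromosome 8, 669 autosomal alpha peaks had neither a beta partner nor any other peak within 100 kb, and they held a median of 18 alpha tags (18 to 19). For beta there were 382 such peaks, with a median of 23 tags (22 to 24). Of all isolated alpha peaks 36.0% had a beta partner (33.1% to 39.0%), against 58.8% of the alpha peaks with a neighbour. Of all isolated beta peaks 49.7% had an alpha partner (46.1% to 53.3%), against 60.8% of those with a neighbour. The overlap is part of the choice of members, so these medians and shares are descriptions.

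Within quartiles of tags, the share of isolated alpha peaks with a partner had an interval below the share of the other peaks in 3 of 4 quartiles. Overlap and isolation both belong to the choice of members, so these shares too are descriptions. Height was not matched within a quartile: the highest alpha quartile ran from 45 to 259 tags for isolated and from 45 to 456 for other peaks. Among alpha peaks with 11 to 19 tags, 15.9% of the isolated (12.7% to 19.5%) and 29.8% of the others (28.6% to 31.0%) had a beta partner, and with 20 to 27 tags 36.0% and 49.0%. With 28 to 44 alpha tags the shares were 68.2% (60.8% to 74.9%) and 69.9%, and in the highest quartile, from 45 tags, 75.8% (66.1% to 83.8%) and 86.3%. In the beta list 29.6% (24.98% to 34.5%) of the isolated and 31.2% of the other peaks with 11 to 26 tags had an alpha partner. In the other 3 quartiles the share was higher for the isolated beta peaks: 54.5% (47.1% to 61.7%) against 51.8% with 27 to 39 tags, 77.1% (68.9% to 84.0%) against 70.7% with 40 to 66 tags, and 95.4% (87.1% to 99.0%) against 90.2% from 67 tags. Each of the beta intervals included the share of the other peaks.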

How the data were processed

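Per the labels' protocols, proteins were crosslinked to each other in disuccinimidyl glutarate (30 minutes, 2 mM) and then to DNA in 1% formaldehyde (10 minutes). Bowtie and HOMER with mm9 are named in the submitters' processing notes; their versions and the read filters are not given in the sources used. The authors deposited 1 peak list per antibody with raw tag counts in the window, at unique positions, in 10000 bp and for input, a peak score, and an FDR (a q-value, 0 in every row, not used). Library totals are not given in the sources used.

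Members were found by the rule stated in the results. The members and lists were chosen with earlier results of these data known. Density compares tags per bp inside the window with tags per bp in the rest of the 10 kb. Shares have exact (Clopper-Pearson) intervals and medians exact binomial intervals, at 95%. The sites named are the 10 members with the largest geometric mean of tags, the 5 most extreme ratios on each side at or above median height, the 5 most remote, and the 3 on each side of the distance limit. Also taken were 3 members with the most input tags in the alpha window. They are the 2 named on chromosome 10 with 12 and 7 input tags, and chr5:98263890-98264042 (48 alpha and 49 beta tags, 7 and 9 input tags). Other members tied at 7 in the alpha window but had fewer in the beta window, such as chr15:37583437-37583589 with 7. The plan assumed that mm9 annotation and sequence might be at hand; planned counts of promoters, gene lists and motifs were not made, since neither was used here. Finding isolated sites and the ratio rule were run on simulated data as a check of the code. The simulated counts held no repeated reads, so they do not show how often unchanged real sites would pass the ratio rule. Alternatives changed the distance, the overlap, the peaks kept and the measure of height. Software was matplotlib 3.10.9, scipy 1.17.1, pandas 2.3.3 and numpy 2.4.6 under Python 3.11.15.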

Additional observations from a re-analysis of the deposited data

Results flagged for a closer look

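Data outside the comparison held further isolated peaks. On the X chromosome, left out because the rule takes autosomes, 17 of 118 shared peaks (14.4%) had no other peak within 100 kb, with medians of 21 alpha and 43 beta tags. On chromosome 8, which had 0 beta peaks in the list used here, 89 of 1415 alpha peaks (6.29%) had no other alpha peak within 100 kb, with a median of 19 tags and a highest value of 103. On the other autosomes 6.86% of the alpha peaks did, with a median of 20 tags. Without beta peaks, neither sharing nor the distance to beta peaks could be judged on chromosome 8. No group had enough libraries to look for an outlying one.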

How the results depend on the processing

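The number of isolated shared sites, 377, became 837 with an isolation distance of 50000 bp and 161 with 200000 bp, by construction. With peaks of at least 8 times the input, medians were 31 alpha and 42 beta tags. With unique positions they were 25 and 22, and as density over the surroundings 20.8 and 19.3. Density turned the ratio of members to other shared sites from 0.778 (alpha) and 0.660 (beta) to 1.60 and 1.34; neighbours in the surrounding 10 kb of other sites enter this value. Against shared sites with the nearest other peak over 10000 bp away, an alternative chosen after the data were seen, the tag ratios were 0.903 and 0.833. The share leaning to alpha, 11.7%, was 18.04% by density (also chosen later; all shared sites 8.15%), 18.6% with tags over input (13.7%), 7.69% centred on the members (4.79%) and 31.3% at 1.5-fold (21.0%). The share leaning to beta, 5.84%, was 8.75% with tags over input (all shared sites 13.2%), 9.55% centred on the members (15.8%) and 14.3% at 1.5-fold (22.3%). The cause of these moves was not tested. The interval of the alpha share also held the background at 200000 bp, with 50% overlap and with 8 times the input, and that of the beta share at 200000 bp and by density. In each of the settings run, those of the results included, the members' alpha share was above and their beta share below that of all shared sites; centred on the members, more of them leaned to beta than to alpha. Alternatives for promoters, gene lists and motifs were not run, since mm9 annotation and sequence were not used here. No paired analysis was possible because there was a single library per antibody, so no library could be left out either. The effect of depth was not tested.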
